A study of Mus musculus with 4 samples.

Results

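Genes of cholesterol and fatty acid synthesis were followed across the 4 arrays of the study. The list held 28 genes, chosen by their known place in these pathways, and 25 of them had a probe under that symbol. All 25 were detected on at least 1 array (detection p-value below 0.01), and 24 were detected on all 4, out of 12616 genes analysed in the whole series. Hmgcs1, Fdft1 and Acaca were not analysed here. Each gene was read from its brightest probe.

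The samples were mouse embryonic fibroblasts (MEFs) of mixed FVB;129 strain, grown in DMEM with 10% FBS, with 1 Illumina MouseWG-6 v2.0 BeadChip array for each of 4 conditions. Parental MEFs, labelled No Cre, carried the floxed Rb gene intact and were mock treated with solution lacking TAT-Cre and with media in place of virus. Rb-deleted MEFs, labelled Cre, received TAT-Cre, a cell-permeable recombinase, in 2 treatments of 1 hr that were 3 hr apart, and media in place of virus. WT Rb-HA MEFs (Cre + WT) and ΔCdk Rb-HA MEFs (Cre + dCDK) received TAT-Cre and a retrovirus for wild-type Rb or for a phospho-mutant Rb that Cdks cannot phosphorylate. Per the study's methods all cells were released from contact inhibition and given doxorubicin, a DNA-damaging drug, at a dose below lethal, which the labels do not mention. There was no array of untreated cells, no empty-virus control and no replicate culture, so no difference between conditions was tested and no p-value is given. TAT-Cre treatment, the loss of Rb and the culture itself cannot be told apart in a comparison with the single parental array.

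Cholesterol is built from acetyl-CoA through mevalonate, isoprenoids and squalene, and fatty acids from the same acetyl-CoA through malonyl-CoA. Genes of both branches are driven by the sterol regulatory element binding proteins SREBP-1 and SREBP-2, products of Srebf1 and Srebf2. When sterols are low the escort protein Scap carries them from the endoplasmic reticulum to the Golgi to be cleaved, and when sterols are high Insig proteins hold Scap back. Growing fibroblasts use the pathway to make membrane, and the low-density lipoprotein receptor supplies cholesterol from serum by a parallel route under the same control.

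Intensities were corrected for background and quantile normalized, and every ratio below is on the log2 scale of these normalized values. The standard error beside a ratio comes from the beads of a probe within the arrays and leaves out the variation between cultures. Between 15950 and 16740 of the 45281 probes were detected per array. Rb1 was at -1.88 relative to parental after Rb deletion, -1.69 with WT Rb-HA and -1.75 with ΔCdk Rb-HA, so this probe at transcript position 4421 lay low on each TAT-Cre array, and it gives no check of the Rb expressed from virus. All 8 fibroblast markers were detected, with a summed intensity of 56060 to 63489. Single markers went in both directions relative to parental. In the same order of arrays Col3a1 was at -0.73, -0.60 and -0.98, and Dcn at 0.37, 0.39 and 0.19. Of 9 adipocyte markers with a probe 7, among them Adipoq, Fabp4 and Plin, were at background on every array. Of 16 leukocyte markers 12 were detected, with a summed intensity of 10633 on the parental array and 5124 to 6491 on the TAT-Cre arrays, while Ptprc and Itgam were at background. In these bulk samples fewer cells of a type and less RNA per cell cannot be told apart. The summed intensity of 8 interferon-induced genes was 14194 on the parental array and 1012 to 2774 on the others, and that of 14 G1/S genes was 3747 on the parental array and 5581 to 10027 on the others.

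Probes are shown for the pair of genes whose readings differed most between probes in the ratio of ΔCdk Rb-HA to parental MEFs. Each is a designed 50-base sequence, given with its start in the reference transcript per the file headers. Capitals mark the stretch that a probe shares with its neighbour, 44 bases for Nsdhl and 15 bases for Insig1.
Nsdhl probe at 210: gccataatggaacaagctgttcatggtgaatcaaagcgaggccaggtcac
Nsdhl probe at 388: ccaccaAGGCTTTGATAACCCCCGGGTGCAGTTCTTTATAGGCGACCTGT
Nsdhl probe at 395: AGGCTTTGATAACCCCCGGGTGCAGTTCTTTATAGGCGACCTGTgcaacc
Insig1 probe at 651: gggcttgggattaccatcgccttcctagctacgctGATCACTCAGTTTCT
Insig1 probe at 686: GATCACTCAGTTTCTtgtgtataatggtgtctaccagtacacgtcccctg

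Promoter windows from RefSeq (assembly GRCm38.p6), reaching from 250 bases before to 50 bases after a gene's start, matched 22 of the 28 genes. Fdps, Fdft1, Sqle, Stard4, Scd1 and Scd2 were not matched. Both strands were searched, and a gene counted if any of its windows held the letters. CCAAT, the letters bound by NF-Y, stood in the windows of 18 of the 22 genes, or 81.8%, compared to 41.1% of the 27025 genes with a window. GGGCGG, bound by Sp1, also stood in 18 of 22, compared to 38.2%, and the E-box CACGTG in 5 of 22 (22.7%), compared to 8.09%. Of 29 other cholesterol and fatty acid genes with a window, detected or not, 17 held CCAAT, 19 GGGCGG and 4 CACGTG. NF-Y and Sp1 are known partners of SREBPs. TCACNCCAC, the degenerate core of the sterol regulatory element, was found in 1 gene, Hmgcs1, compared to 1.44% of all genes, and the longer classical element, which contains that core, in none, compared to 0.0999%. The E2F letters TTTCCCGC and TTTGGCGC were in none of the 22, compared to 1.24% and 0.585% of all genes. None of these matches is a measured binding site.

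Shown here are the 150 bases before the start of Nsdhl (chrX:72918371-72918520, + strand), the gene that varied most over the arrays, and of Idi1 (chr13:8885456-8885605, + strand), the gene furthest below parental after Rb deletion. Capitals mark CCAAT and GGGCGG on either strand, and both stretches held 2 of the former and 1 of the latter.
Nsdhl: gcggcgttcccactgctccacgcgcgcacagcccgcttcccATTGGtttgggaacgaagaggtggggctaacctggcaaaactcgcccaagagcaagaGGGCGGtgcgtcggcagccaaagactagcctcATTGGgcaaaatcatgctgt
Idi1: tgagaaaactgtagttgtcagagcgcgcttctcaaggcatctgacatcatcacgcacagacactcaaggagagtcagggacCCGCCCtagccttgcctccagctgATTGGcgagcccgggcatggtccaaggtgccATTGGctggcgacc

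None of the 25 lipid synthesis genes differed by 1.6-fold, the study's filter (0.68 on the log2 scale), between any pair of arrays. At their brightest probes sterol and fatty acid enzymes, the SREBP genes and their regulators all had ranges within 0.68 over the 4 arrays. The median range, from the lowest to the highest array, was 0.36, compared to 0.36 for all genes analysed. Some other probes of Insig1, Nsdhl and Sqle differed more between arrays, as given below. Over all genes 11.2% had a range past 1.6-fold. The narrowest range was that of Sqle, squalene monooxygenase, at 0.08, and the widest that of Nsdhl, a sterol demethylating enzyme, at 0.68, just short of the filter. Next below Nsdhl came Stard4 at 0.62 and Cyp51 at 0.50. A count of 0 of 25 is read against this share and against the smaller shares given for each pair of arrays.

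**Figure D1:**
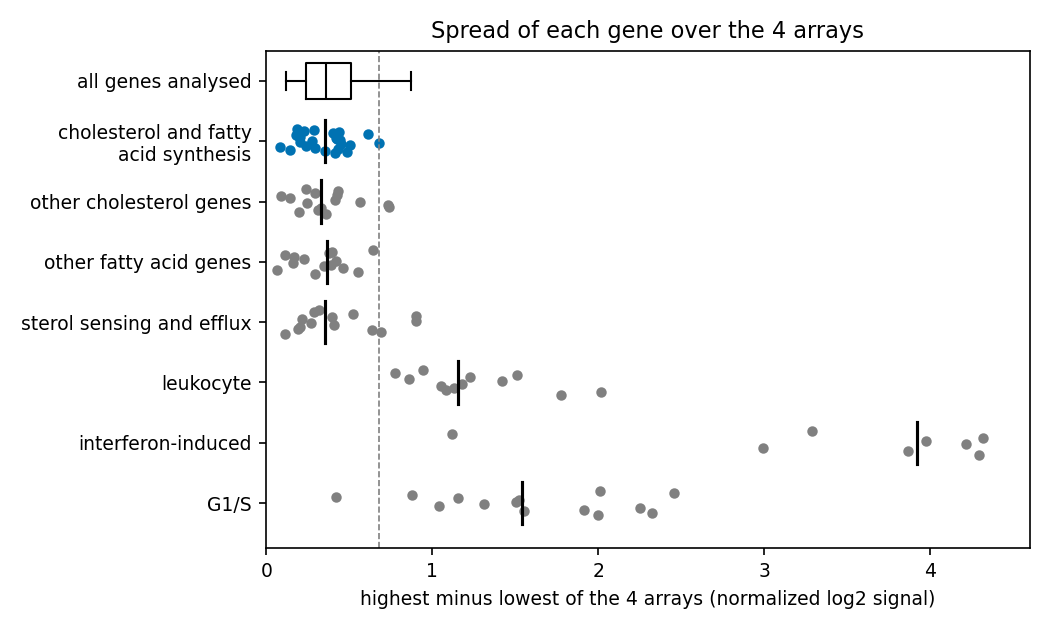
Highest minus lowest of the 4 arrays in normalized log2 signal, with 1 point per gene and a black line at each list's median; the box for all genes spans the quartiles with whiskers at percentiles 5 and 95, and the dashed line is 1.6-fold. The lipid synthesis genes had a median of 0.36 and reached 0.68, while leukocyte genes had a median of 1.16, G1/S genes 1.54 and interferon-induced genes 3.92.

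Enzymes of the mevalonate pathway showed small differences in both directions. Idi1 (chromosome 13), which isomerizes isopentenyl diphosphate, gave intensities of 394 in parental, 289 in Rb-deleted, 287 in WT Rb-HA and 303 with ΔCdk Rb-HA. It was thus highest in parental MEFs, at ratios of -0.44 (bead standard error 0.08), -0.43 (0.09) and -0.32 (0.09) in the same order. Acat2, which condenses acetyl-CoA units, had intensities of 297, 379.8, 325 and 304. Its ratio was 0.41 (0.10) after Rb deletion and at most 0.19 on the other arrays. Mvk, mevalonate kinase, was dim at 76.8, 88.1, 75.8 and 94.3, with ratios of 0.32 (0.13), -0.05 (0.14) and 0.44 (0.14), so the WT Rb-HA array stood with the parental one. Fdps (chromosome 3), which makes farnesyl diphosphate, was bright at 2562, 2729.8, 2815 and 3042. Its ratios of 0.13 (0.05), 0.17 (0.05) and 0.29 (0.05) all lay above parental. Pmvk and Mvd, the enzymes between Mvk and Idi1, had ratios between -0.08 and 0.36.

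Among the enzymes from squalene to cholesterol, Nsdhl and Cyp51 were highest on the ΔCdk Rb-HA array. Nsdhl (chromosome X) had intensities of 242 in parental, 231.5 in Rb-deleted, 326 in WT Rb-HA and 346 with ΔCdk Rb-HA at the probe at position 210. At this probe both arrays from virus-infected cells were above both arrays without virus, with log2 ratios to Rb-deleted MEFs of 0.56 (bead standard error 0.07) for WT Rb-HA and 0.68 (0.08) for ΔCdk Rb-HA. Cyp51 (chromosome 5), lanosterol demethylase, had intensities of 833, 847, 937 and 1089 in that order of arrays. Its ratio to parental was 0.07 (0.09) after Rb deletion, 0.24 (0.08) with WT Rb-HA and 0.50 (0.08) with ΔCdk Rb-HA.

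Tm7sf2 and Dhcr7, reductases of sterol double bonds, showed another order. Tm7sf2 (chromosome 19) had intensities of 77.0, 94.6, 94.5 and 76.8, so that the first pair of TAT-Cre arrays lay above the parental and ΔCdk Rb-HA arrays. Its ratios to parental were 0.45 (0.13), 0.40 (0.13) and 0.01 (0.14). Dhcr7 (chromosome 7), which completes cholesterol, had intensities of 218, 279, 252 and 209.9, with ratios of 0.43 (0.12), 0.27 (0.11) and 0.00 (0.11). From Rb-deleted to ΔCdk Rb-HA MEFs the difference was -0.43 for Tm7sf2 and -0.42 for Dhcr7, each past 2 bead standard errors. Sc5d, a sterol desaturase, was dim and highest in parental MEFs, at 81.0 compared to 65.8, 66.9 and 71.6, with ratios of -0.41 (0.13), -0.45 (0.13) and -0.24 (0.14). Lss, Hsd17b7, Ebp and Sqle had ratios to parental between -0.20, for Ebp with WT Rb-HA, and 0.23, for Lss in the same MEFs.

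At their brightest probes the 4 regulators of the pathway had ratios between 0.00 and 0.13 after Rb deletion. Srebf1 (chromosome 11) was dim, at intensities of 77.5 in parental, 76.0 in Rb-deleted, 64.8 in WT Rb-HA and 65.8 with ΔCdk Rb-HA. Its ratios were 0.00 (0.16), -0.42 (0.16) and -0.33 (0.15), lower on both arrays with virus. Srebf2 (chromosome 15) had intensities of 614, 605, 638 and 540.3, and its ratios of 0.01 (0.09), 0.10 (0.09) and -0.11 (0.09) were all within 2 bead standard errors of 0. Scap had ratios of 0.12, -0.08 and 0.02. Insig1 (chromosome 5), itself a target of SREBPs, had intensities of 1286, 1353, 1196 and 1172 at its brightest probe, with ratios of 0.13 (0.06), -0.05 (0.07) and -0.04 (0.06). After Rb deletion its dimmer probe at 651 gave 0.47 (0.09), its similarly dim probe at 686 gave 0.14 (0.10), and the mean of its detected probes was 0.25.

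Stard4, a carrier of cholesterol between membranes, had the highest ratio to parental of any of the 25 genes after Rb deletion. Its intensity was 246 in parental, 354 in Rb-deleted, 288 in WT Rb-HA and 315 with ΔCdk Rb-HA, all 3 TAT-Cre arrays above parental. The ratios were 0.62 (bead standard error 0.09), 0.30 (0.09) and 0.46 (0.10). WT Rb-HA MEFs were lower than Rb-deleted MEFs by a log2 ratio of -0.32 (0.07).

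Among the 5 fatty acid synthesis genes, Acly and Scd1 were the bright ones with ratios below 0 on all 3 TAT-Cre arrays. Acly (chromosome 11), which makes cytosolic acetyl-CoA from citrate, had intensities of 5697 in parental, 5113 in Rb-deleted, 4995 in WT Rb-HA and 4239 with ΔCdk Rb-HA. Its ratio to parental was -0.08 (0.06), -0.15 (0.06) and -0.40 (0.05), the lowest of the 25 genes with ΔCdk Rb-HA. Scd1 (chromosome 19), a stearoyl-CoA desaturase, had intensities of 1517, 1199, 1262 and 1213, with ratios of -0.29 (0.05), -0.22 (0.05) and -0.23 (0.05), so that the 3 TAT-Cre arrays sat together below parental. Its close relative Scd2, on the same chromosome, had intensities of 117, 114, 128 and 121 and ratios of -0.02 (0.22), 0.17 (0.20) and 0.10 (0.19).

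Fasn, fatty acid synthase, was near background at 59.5, 58.6, 63.8 and 52.2, and was below the detection limit with ΔCdk Rb-HA. By bounds taken from the signals alone, it was there at least 1.12-fold lower than parental and at least 1.22-fold lower than WT Rb-HA. These bounds set the detected array against the lowest detected signal of the other array, or the probe's own signal where that was higher. They leave out the bead error, and the ratio to parental as drawn, -0.32 (0.21), lay within 2 bead standard errors of 0. Elovl6, which extends palmitate, had intensities of 227, 232, 255 and 230.1 and ratios of 0.07 (0.10), 0.23 (0.09) and 0.09 (0.12).

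**Figure D2:**
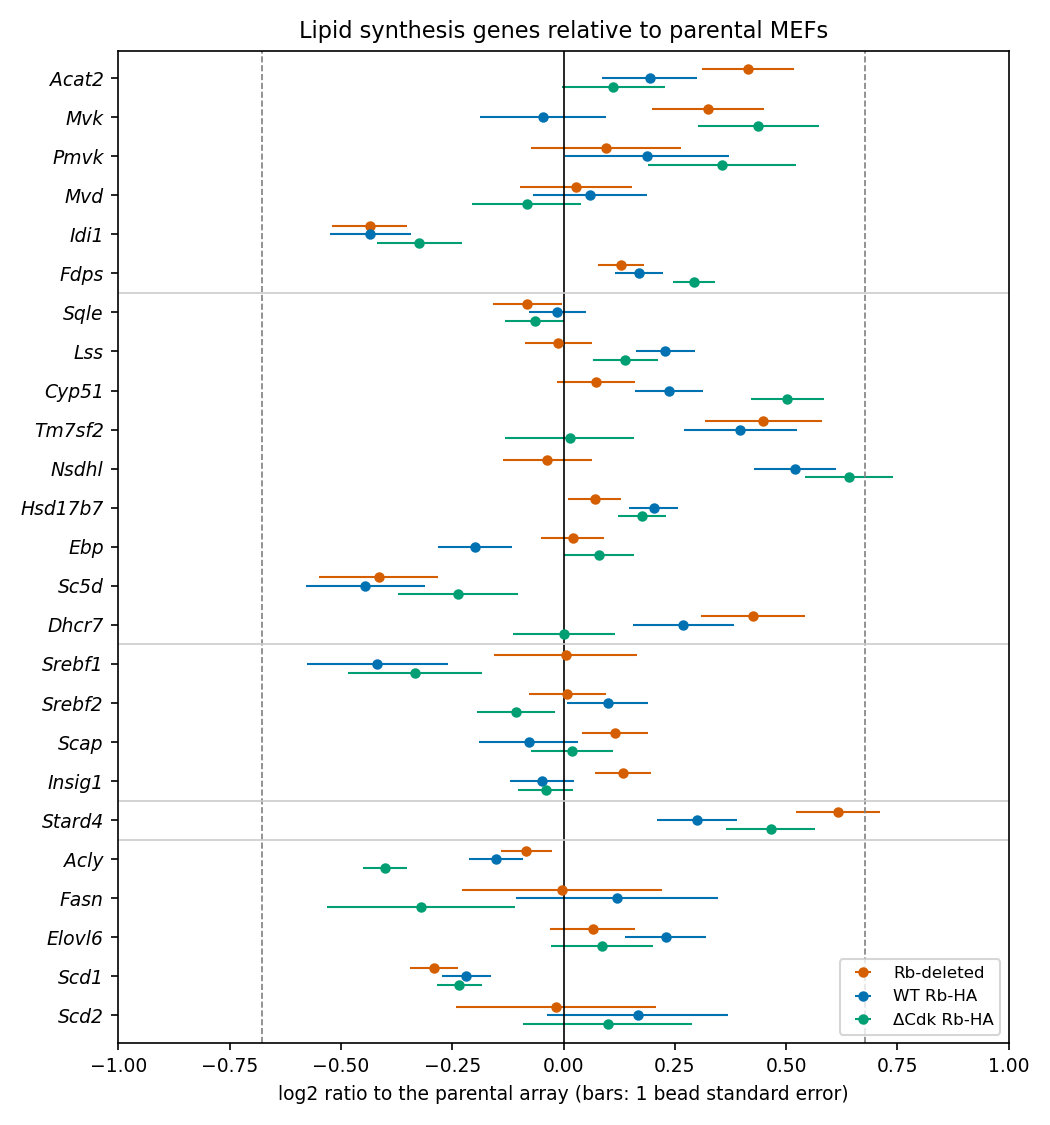
Log2 ratio to the parental array of each of the 25 genes on the 3 TAT-Cre arrays, with bars of 1 bead standard error and dashed lines at 1.6-fold; grey lines part the mevalonate, sterol, regulator, transport and fatty acid genes. Every point lies between the dashed lines, with Nsdhl with ΔCdk Rb-HA (0.64) and Stard4 after Rb deletion (0.62) nearest to them, and Fasn with ΔCdk Rb-HA is drawn although below the detection limit.

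For loss of Rb, the comparison of Rb-deleted with parental MEFs, the 25 genes had a median log2 ratio of 0.03, compared to 0.02 over all genes, with 16 above 0 and 9 below. No gene was higher and none lower past 1.6-fold, compared to 2.14% and 2.98% of all genes. A difference past 2 bead standard errors was seen for 10 of the 25, compared to 51.2% of all genes. Of these, Acat2, Mvk, Fdps, Tm7sf2, Dhcr7, Insig1 and Stard4 were higher, and Idi1, Sc5d and Scd1 were lower. Ratios within 0.25 of parental were found for 17 genes, or 68.0%, compared to 60.7% of all genes.

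In WT Rb-HA MEFs the median ratio to parental was 0.12, compared to 0.01 over all genes. Again no gene was past 1.6-fold in either direction, compared to 0.888% higher and 2.46% lower among all genes, and 15 passed 2 bead standard errors (46.8% of all genes). In ΔCdk Rb-HA MEFs the median was 0.02, compared to -0.01, none passed 1.6-fold (2.58% higher and 3.3% lower among all genes), and 11 passed 2 bead standard errors (53.3%). These 3 comparisons share the parental array. Acat2, Pmvk, Fdps, Cyp51, Tm7sf2, Hsd17b7, Dhcr7, Stard4 and Elovl6 were above parental on all 3 TAT-Cre arrays, and Idi1, Sqle, Sc5d, Acly and Scd1 below it. These 9 and 5 genes compare to 30.9% and 29.5% of all genes.

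Comparisons among the TAT-Cre arrays, which leave out the parental array, gave the same picture of small differences. When wild-type Rb was added to Rb-deleted cells the median was 0.03, no gene passed 1.6-fold (0.539% higher and 0.484% lower among all genes) and 9 passed 2 bead standard errors (33.8%). Lss, Cyp51, Nsdhl and Hsd17b7 were the 4 higher genes, or 4 of 25 compared to 15.02% of all genes. Mvk, Ebp, Srebf1, Insig1 and Stard4 were the 5 lower ones, compared to 18.8%. When ΔCdk Rb was added instead, the median was 0.02, no gene passed 1.6-fold (2.31% and 1.95%) and 11 passed 2 bead standard errors (48.3%).

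The direct comparison of ΔCdk Rb-HA with WT Rb-HA MEFs asks whether Rb that cannot be phosphorylated differs from wild-type Rb. Its median was -0.02, no gene passed 1.6-fold (0.84% and 1.01% of all genes) and 10 passed 2 bead standard errors (36.5%). Mvk, Fdps, Cyp51, Ebp and Stard4 were higher with ΔCdk Rb-HA, by up to 0.48 for Mvk. Tm7sf2, Dhcr7, Srebf2 and Acly were lower, down to -0.38 for Tm7sf2, and Fasn, below the detection limit with the mutant, was lower by the bound given above. The second detected probe of Srebf2 gave the opposite direction.

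Readings depended on which probe of a gene was used. At the probe sequences shown for Nsdhl, the ratio of ΔCdk Rb-HA to parental MEFs was 0.64 (bead standard error 0.10) at position 210, 0.33 (0.11) at 388 and 0.82 (0.10) at 395, although the last pair shares 44 of 50 bases. The Nsdhl probe at 1881, the nearest to the end of the transcript, gave 0.06 (0.11). Relative to Rb-deleted MEFs that last probe turned the direction, at -0.09 (0.09) for WT Rb-HA and -0.22 (0.09) for ΔCdk Rb-HA. For Insig1 the probes at 651 and 686 both gave 0.72 (0.09 and 0.10), with intensities of 164 in parental and 245 with ΔCdk Rb-HA for the first, while the brightest probe at 2239 gave -0.04. Sqle gave 0.49 (0.10) at 1081, where intensities were 513, 512, 584 and 667, and -0.06 (0.07) at 2224. Elovl6 went the other way, with -0.24 (0.11) at 2298 and 0.09 (0.12) at 5635. For Srebf2 a probe at position 2491 of another transcript record had intensities of 129, 121, 118 and 139. It gave 0.17 (0.09) for ΔCdk Rb-HA relative to parental and 0.32 (0.08) relative to WT Rb-HA, where the probe at 4087 gave -0.11 (0.09) and -0.21 (0.10).

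Counted by probe, 3 of 34 detected probes of these genes were higher past 1.6-fold in ΔCdk Rb-HA than in parental MEFs, the Insig1 probes at 651 and 686 and the Nsdhl probe at 395, compared to 2.72% of all detected probes. Against Rb-deleted MEFs it was 1 probe, that of Nsdhl at 395, compared to 2.61%. The choice of the brightest probe kept all of these out of the count by gene. A difference by position was also present across the array. For 1906 genes with 2 or more probes at least 200 bases apart on 1 transcript, the ratio of ΔCdk Rb-HA to parental at the first probe minus that at the last had a median of 0.18 and was above 0 for 72.9%. The same value had a median of 0.03 after Rb deletion and 0.12 with WT Rb-HA. It was 0.76 for Insig1, 0.58 for Nsdhl, 0.55 for Sqle and -0.33 for Elovl6 with ΔCdk Rb-HA, where all genes lay between -0.32 and 0.74 at percentiles 5 and 95. What part the position of the probe had in the results for these genes was not tested.

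**Figure D3:**
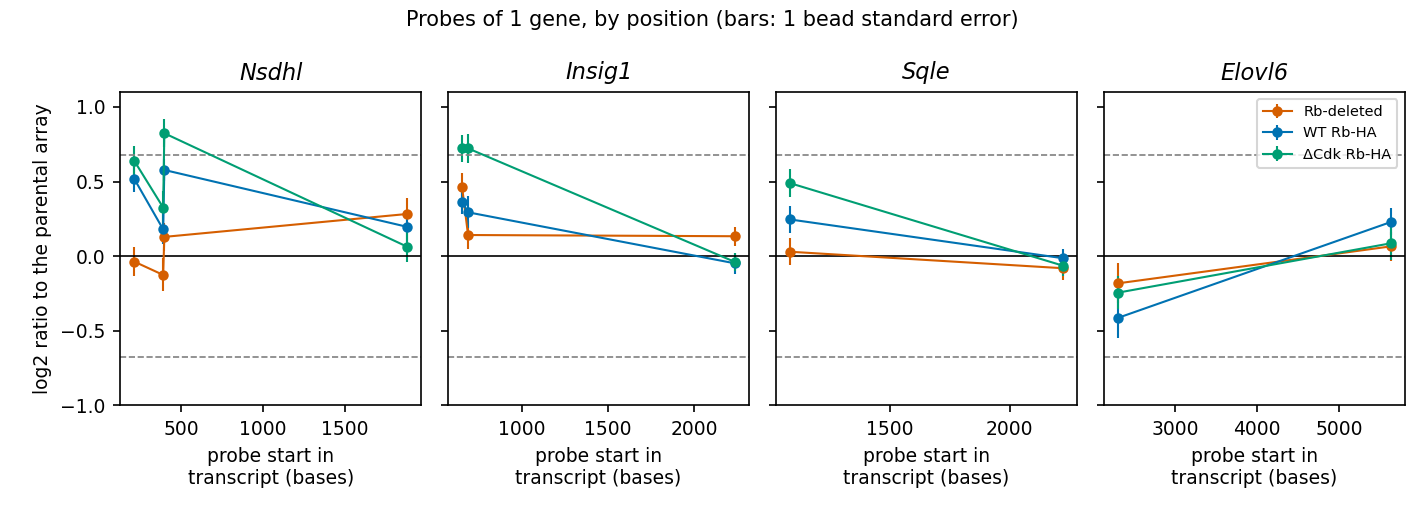
Log2 ratio to the parental array of each probe detected on all 4 arrays, by its start in the transcript, for Nsdhl, Insig1, Sqle and Elovl6, with bars of 1 bead standard error, lines joining the probes of 1 array and dashed lines at 1.6-fold. In ΔCdk Rb-HA MEFs the upstream probes of Insig1 lie at 0.72 and its last probe at -0.04, and Elovl6 has the opposite slope.

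Other genes of cholesterol supply differed from parental in both directions. Of 15 further genes detected, none passed 1.6-fold relative to parental on any TAT-Cre array, and their medians were -0.03, 0.02 and -0.08. Among all genes 2.14%, 0.888% and 2.58% were higher and 2.98%, 2.46% and 3.3% lower past 1.6-fold. Ratios within 0.25 of parental made up 53.3%, 80% and 53.3% of the 15, compared to 60.7%, 65.1% and 58.1% of all genes. Between ΔCdk Rb-HA and Rb-deleted MEFs Insig2, a relative of Insig1 that also retains Scap, passed the filter and was higher at 0.73 (0.07). Intensities at this brightest probe were 523, 409.8, 509.8 and 643. Another Insig2 probe, at position 1901 and detected on all 4 arrays (225, 189, 188 and 211), gave 0.21 (0.10) for the same pair. Of 14 further fatty acid and glycerolipid genes none passed 1.6-fold between any pair of arrays, compared to 11.2% of all genes. Dgat2, which completes triglycerides, came nearest at 0.64 (0.08) in ΔCdk Rb-HA relative to parental MEFs.

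Genes that sense, store and export sterols had medians below 0 on all 3 TAT-Cre arrays. Of 14 detected, 10 were below parental after Rb deletion, 9 with WT Rb-HA and 11 with ΔCdk Rb-HA, with medians of -0.19, -0.18 and -0.24. These values include Nr1h3, which was detected on the parental array alone, so the detection filter favoured its place below parental. Another gene of the list was detected on the ΔCdk Rb-HA array alone. Over all genes 47.5%, 48.6% and 50.9% were below parental, with medians of 0.02, 0.01 and -0.01, and the 3 comparisons share the parental array. Ch25h (chromosome 19), which makes 25-hydroxycholesterol, a sterol that restrains SREBP cleavage, had intensities of 718 in parental, 477 in Rb-deleted, 466 in WT Rb-HA and 370.4 with ΔCdk Rb-HA. Its ratios were -0.56 (0.06), -0.59 (0.05) and -0.91 (0.06), past 1.6-fold on the last array. Ch25h is known to be induced by interferon, and its order over the arrays is given beside the summed interferon-induced signal above, with their relation not tested.

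Apoe, an apolipoprotein of macrophages and other cells that accepts exported cholesterol, had intensities of 181, 187, 156 and 110.2. Its ratio was 0.07 (0.19) after Rb deletion and -0.84 (0.15) with ΔCdk Rb-HA, while the summed leukocyte signal was lower on all 3 TAT-Cre arrays. Nr1h3, the oxysterol receptor LXR alpha, was detected on the parental array alone. Its bounds, of the kind given for Fasn and likewise without bead error, were at least 1.27-fold lower after Rb deletion. They were 1.17-fold with WT Rb-HA and 1.23-fold with ΔCdk Rb-HA. Npc2, which moves cholesterol out of lysosomes, was below parental at -0.40 (0.06), -0.27 (0.08) and -0.41 (0.07), while Stard3, a cholesterol transporter of late endosomes, was above it at 0.03 (0.09), 0.29 (0.08) and 0.11 (0.09). Soat1, which esterifies cholesterol, gave -0.26, -0.21 and -0.27 at its brightest probe and -0.03, -0.10 and -0.07 at a second bright probe. Leukocyte genes, at medians of -0.90, -1.02 and -0.96, were lower on the same arrays, except Cd53 with ΔCdk Rb-HA. There 11 of the 12 were below parental and Cd53 was above it at 0.39 (0.10). The part of other cell types in these values was not tested.

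**Figure D4:**
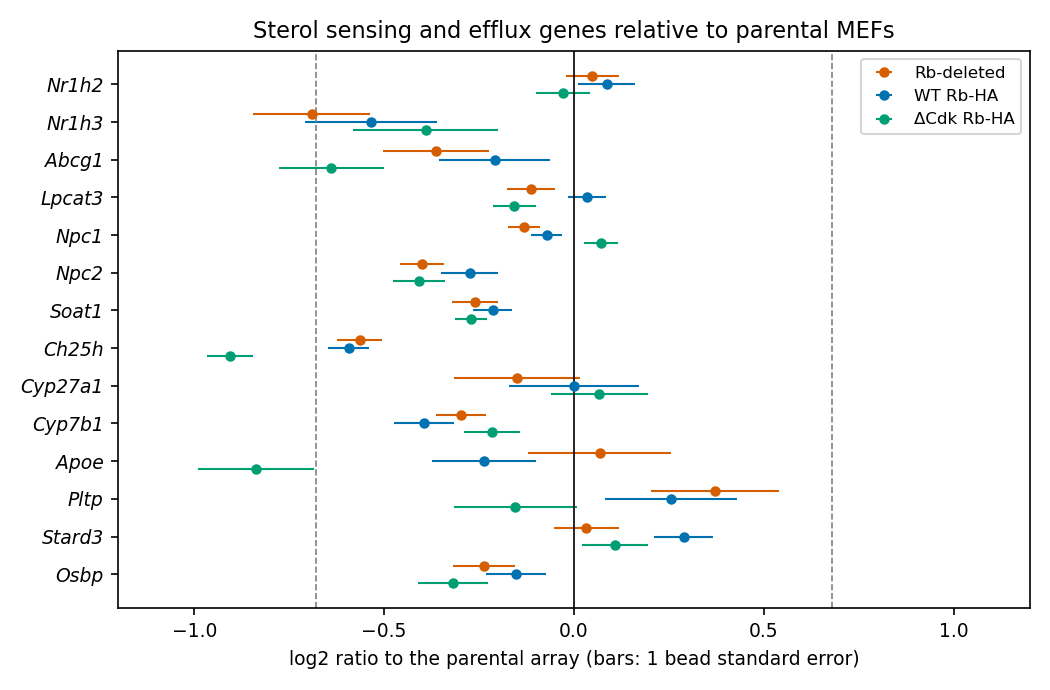
Log2 ratio to the parental array of 14 genes of sterol sensing, storage and export on the 3 TAT-Cre arrays, with bars of 1 bead standard error and dashed lines at 1.6-fold. Ch25h and Apoe with ΔCdk Rb-HA lie past the dashed line at -0.91 and -0.84, and Nr1h3, detected on the parental array alone, is drawn at -0.69 after Rb deletion, where only its bound of 1.27-fold was measured.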

How the data were processed

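Expression was measured on 4 Illumina MouseWG-6 v2.0 BeadChips, 1 per condition. Conditions were taken from the sample labels. The authors deposited the intensity of each of 45281 probes, averaged over beads on a linear scale and not normalized between arrays. Their deposited table also holds a detection p-value, the bead standard error and a bead count per probe and array, with a median of 44 beads. The software that summarized the beads is not given in the sources used here.

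From these, limma (version 3.58.1, R 4.3.3) removed background by normexp, inferred from the detection p-values, with an offset of 16. Quantile normalization of all 4 arrays and log2 transformation followed. A gene was kept if any array gave a probe of it a detection p-value below 0.01, each read from the probe with the highest mean signal. Symbols of 34 of 40 probes that had been turned into dates were restored by Entrez number (RefSeq table of GRCm38.p6). Bead standard errors were carried through each array's own mapping to normalized values.

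The genes, lists and comparisons were chosen with earlier results of these data known. Named individually were the 25 genes, Rb1, genes of the wider lists past 1.6-fold in any pair of arrays, and Dgat2, Npc2, Soat1 and Stard3, chosen after their values were seen. Some results of the wider lists, not all below 1.6-fold, are not reported here. As alternatives, uncorrected intensities, an offset of 50, median scaling, detection on all 4 arrays, the mean of a gene's detected probes, a 1.5-fold filter and a requirement of 2 bead standard errors were tried. The calculation was tested on simulated data. The number of arrays limits the precision. Python 3.11.15 with pandas 2.3.3 was used for the rest.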

Additional observations from a re-analysis of the deposited data

How the results depend on the processing

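With 1 array per condition no result has a replicate check. Of the 84 counts of genes past the filter recomputed under other settings, 81 remained at 0. Detection on all 4 arrays and the requirement of 2 bead standard errors could only remove genes, so their counts were fixed at 0. Uncorrected intensities and an offset of 50 narrowed ratios such as that of Stard4 after Rb deletion, from 0.62 to 0.56 and 0.55. At a filter of 1.5-fold 1 gene (Stard4) was higher in Rb-deleted than in parental MEFs and 1 (Nsdhl) with ΔCdk Rb-HA relative to either of the arrays without virus. Of 30 recomputed medians, 1 moved by more than a bead standard error. With the mean of all detected probes in place of the brightest, the median of ΔCdk Rb-HA relative to WT Rb-HA MEFs was 0.084 in place of -0.02, by construction through the genes with several probes. Of 744 ratios of single genes 45 moved by more than their bead standard error, and 29 of these under the mean of probes. That mean could move only genes with more than 1 detected probe. Detection on all 4 arrays kept the same probes, so its 144 ratios could not move. The share of 45 in 744 therefore understates how far ratios depended on the choice of probe. No ratio past 1.6-fold was there to change sign. Dim genes such as Fasn, Mvk, Sc5d and Srebf1, near a median intensity of 44.7 to 46.4 on all probes, could show only large differences. No paired analysis was possible because there is 1 array per condition.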

Other observations

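Of the adipocyte list only Lpl and Pparg were detected. Lpl, lipoprotein lipase, which releases fatty acids from circulating lipids, had intensities of 738 in parental, 1125 in Rb-deleted, 969 in WT Rb-HA and 512 in ΔCdk Rb-HA MEFs, with log2 ratios to parental of 0.68 (bead standard error 0.06), 0.47 (0.06) and -0.46 (0.06). Pparg, an adipogenic nuclear receptor, was dim at 62.4, 78.7, 74.3 and 70.9, with ratios of 0.55 (0.17), 0.36 (0.15) and 0.31 (0.14). Macrophages also express Lpl, and none of these differences was tested.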
